A study of Mus musculus with 17 samples.

Results

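The difference of responses asks whether ischemia-reperfusion injury (IRI) moved a gene by a different amount in CCN2 KO kidney cortex than in WT kidney cortex. For each gene it was computed as the log2 change from sham to IRI under the CCN2 KO label minus the same change under the WT label. All 17 labelled kidneys of the series entered, namely 4 and 4 from WT mice after sham and IRI and 4 and 5 from CCN2 KO mice, and 12608 of the 38293 genes in the deposited table were tested. A positive value means that the CCN2 KO response lay above the WT response, and a negative value that it lay below. The sign alone does not say whether a gene went up or down, so both responses are given beside it.

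The mice were C57BL/6 males of 12 to 14 weeks that all carried floxed Ccn2 alleles and a ROSA26-driven, tamoxifen-inducible Cre, per the study's methods. The CCN2 KO label stands for animals given 4 injections of tamoxifen, and the WT label for animals of the same line given corn oil. Since the drug was given under 1 label only, an effect of tamoxifen and an effect of the deletion cannot be told apart. After 14 days both kidneys were clamped for 25 min in the IRI groups, the sham groups had surgery without a clamp, and the cortex was taken 4 h later. Values are quantile-normalized log2 RPKM, that is, read counts scaled by gene length and by the reads of the library, on a log2 scale. One unit is a doubling of the level, and the lowest possible value of −3.32, called the floor here, stands for an RPKM of 0.1.

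Clamping and releasing the renal vessels starves the tubule of oxygen and then floods it with oxygen again. Within hours the epithelium switches on immediate early transcription factors, stress and p53 responses and chemokines, and lowers many genes of differentiated tubule function. CCN2, also called connective tissue growth factor and encoded by Ctgf, is a secreted matricellular protein that is itself switched on by injury. A test of the 4 groups together addresses whether this early program differs in size between the labels, which comparisons within 1 genotype or 1 kind of surgery do not test.

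The libraries of a group correlated at 0.915 to 0.961 across genes, no 2 were identical, and between 20832 and 23052 genes per library lay at the floor. Their sequencing depth is unknown. The first principal component of the genes tested carried 30.5% of the variance. On it the WT sham kidneys scored from −48.4 to −36.3, the CCN2 KO sham kidneys from −46.3 to −24.7 and the WT IRI kidneys from 40.7 to 48.3. The CCN2 KO IRI kidneys scored 32.3, 31.5, 23.4, 34.3 and −1.73. The last of these, replicate 33D6, stood apart from the other 4 and lay between the sham and IRI groups. Values are therefore also given without it where its removal changed a call or moved a count, a median or a difference by more than 1.5 times. By the median absolute distance of a library to the rest of its group, 33D3 lay further off (0.211) than 33D6 (0.204). Single genes are not given without 33D3. Proximal tubule genes of the S1 and S2 segments were abundant in every kidney, with a summed RPKM of 3695 to 5931.

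The step from sham to IRI on this component was 30.8 score units shorter under the CCN2 KO label (difference of responses −30.8). A two-sided exact permutation of the genotype labels within sham and within IRI, over 8820 divisions, gave p = 0.00431. That permutation asks whether the label matters in either state, with the difference of responses as its statistic. The CCN2 KO kidneys were nearer to the middle in both states, with means of −31.9 ± 9.82 (SD, n = 4) in sham and 23.95 ± 14.95 (n = 5) after IRI. The WT means were −42.4 ± 6.65 (n = 4) and 44.4 ± 3.46 (n = 4). Without 33D6 the difference was −24.3 (exact permutation p = 0.00531). With genes scaled to unit variance it was −37.7 and no longer passed (exact permutation p = 0.0553). On the second component, with 11.3% of the variance, the difference of −25.3 did not pass (exact permutation p = 0.274).

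Across the 12608 genes, WT responses had an SD of 0.81 on the log2 scale and CCN2 KO responses an SD of 0.59. The 2 sets of responses share no kidney, and they correlated across genes at a Pearson r of 0.66 and a Spearman rho of 0.68, where genes are not independent replicates. The median difference of responses was 0.00, which quantile normalization largely sets, so a shift of all genes together cannot be seen in these values. A WT response beyond 1 in size was seen in 1712 genes, and in 1576 of them the CCN2 KO response was smaller in size. A CCN2 KO response beyond 1 in size was seen in 872 genes, and in 415 of them the WT response was the smaller. Genes chosen for a large value under 1 label tend to be smaller under the other, so both counts are given.

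**Figure D1:**
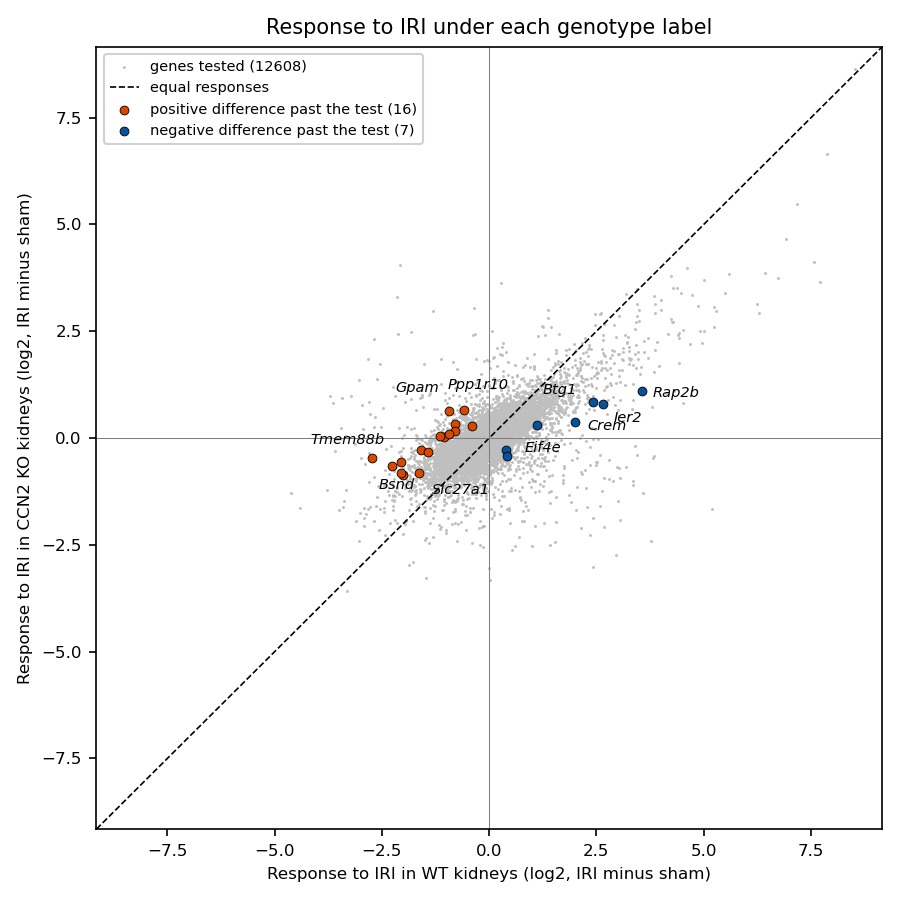
Response to IRI (log2, mean of IRI kidneys minus mean of sham kidneys) in WT kidneys on the horizontal axis and in CCN2 KO kidneys on the vertical axis, 1 point per gene tested. The 16 genes with a positive difference that passed the test lie above the dashed line of equal responses and left of 0, and the 7 with a negative difference lie below it and right of 0.

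Of 12608 genes, 23 passed limma at a Benjamini-Hochberg adjusted p under 0.05, which is 0.182% of those tested. Of these, 16 had a positive difference (0.127%) and 7 a negative one (0.0555%). At an unadjusted p under 0.05 there were 1884 genes (14.9%), 994 positive (7.88%) and 890 negative (7.06%), and 81 further genes had an adjusted p between 0.05 and 0.1. The median standard error of a difference of responses was 0.23, and of the 823 genes with a difference beyond 1 in either direction 17 passed. The count depended on single libraries. It was 78 without 33D3, 40 without 33D6 and 39 without 32B5, and it was 15 without 33D4, 14 without 33B3 or 33C3, 11 without 32A1 or 33C1, 9 without 33A1 and 7 without 33C4. Jarid2, Zkscan3, Slc27a1, Irgm2, Zc3h4 and Tmem55b were among the genes that passed in each of these 17 fits that leave out 1 kidney.

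The 16 positive genes shared the sign of their WT response, which was below 0 in all of them, while the CCN2 KO response was below 0 in 8 and above 0 in the other 8. In the 7 negative genes the WT response was above 0, and the CCN2 KO response was above 0 in 5 and below 0 in Tmem55b and Cinp. In the 5 the CCN2 KO response was the smaller of the 2. In no gene that passed did the CCN2 KO response exceed the WT response in the same direction. The CCN2 KO IRI kidneys did not overlap the WT IRI kidneys in any of the 23, being higher in 16 of 16 and lower in 7 of 7. Over all genes tested 10.1% were higher and 7.24% lower without overlap. These values are parts of the same contrast that chose the genes and are given as a description.

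The sham kidneys also entered the difference, with the opposite sign. All 16 positive genes had a lower mean in the CCN2 KO sham group than in its WT counterpart, 9 of them without overlap, where 2.52% of all genes tested were lower without overlap. Of the 7 negative genes 5 had a higher mean in CCN2 KO sham, 3 of them without overlap, against 2.19% of all genes tested. In 20 genes the gap after IRI made up more than 50% of the difference. In Zkscan3, Dll1 and Adar the gap between the sham groups was the larger part, at 55.7%, 61.3% and 63.1%.

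**Figure D2:**
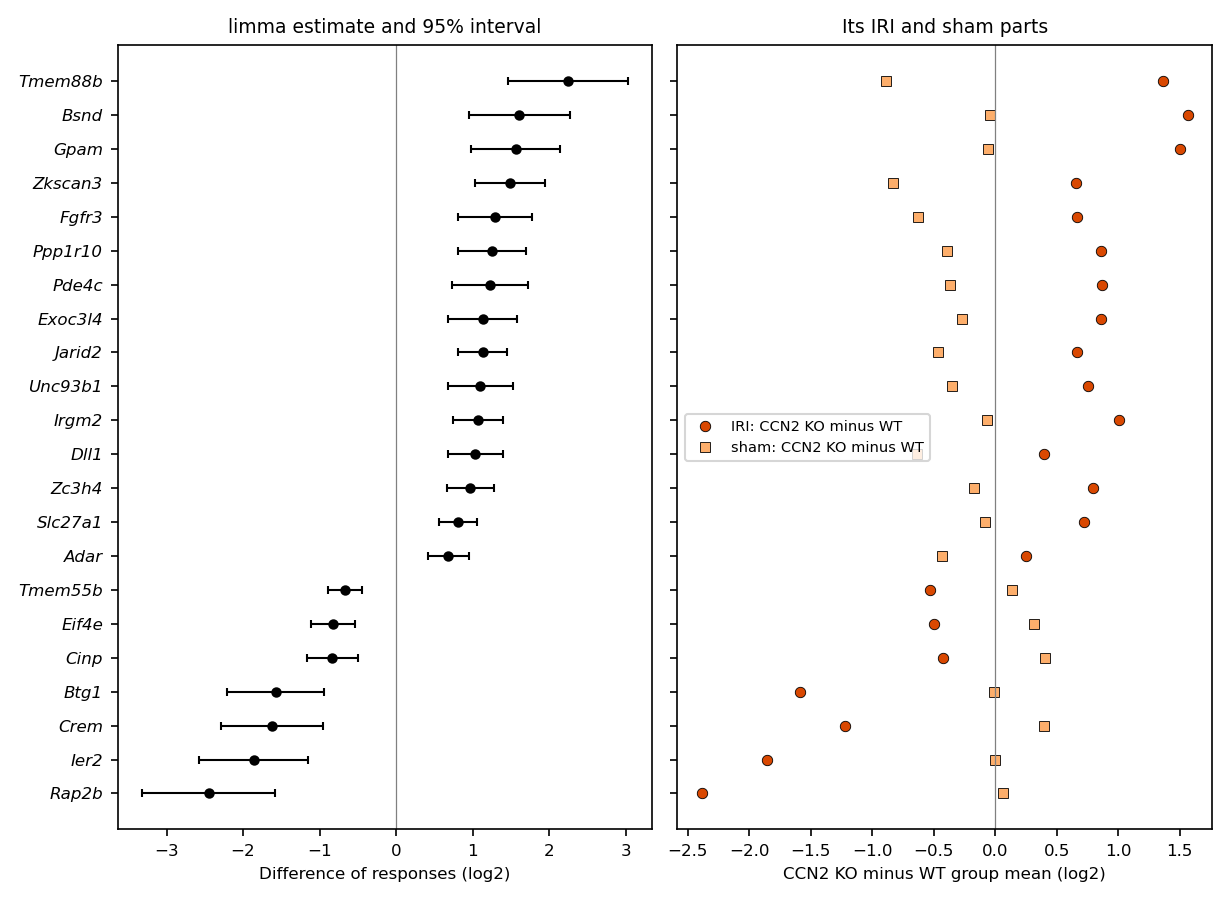
Left, limma's difference of responses (log2) of 22 of the 23 genes with its 95% confidence interval. Right, the CCN2 KO minus WT difference of group means (log2) after IRI, as circles, and in sham, as squares; the sham square lies left of 0 for each positive gene shown.

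Jarid2, an accessory subunit of Polycomb repressive complex 2, had the lowest p and is the gene that passed under every setting tried. It lies on chromosome 13 of GRCm38 from 44729474 to 44921643. In WT kidneys log2 RPKM was 2.18, 2.64, 2.65 and 2.55 in sham and 1.65, 1.78, 1.67 and 1.72 after IRI. Under the CCN2 KO label it was 2.02, 2.12, 2.04 and 1.96 in sham and 2.44, 2.36, 2.45, 2.41 and 2.17 after IRI. All WT IRI kidneys were thus below all WT sham kidneys, and all CCN2 KO IRI kidneys above all CCN2 KO sham kidneys. The WT response was −0.80 (SE 0.11) and the CCN2 KO response 0.33 (SE 0.10), a difference of 1.13 (SE 0.15, limma adjusted p = 0.00862).

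Ppp1r10, which encodes the nuclear targeting subunit PNUTS of protein phosphatase 1, had log2 RPKM of 2.88, 3.31, 3.04 and 2.83 in WT sham and 2.80, 2.60, 2.06 and 2.26 in WT IRI. It was 2.84, 2.31, 2.70 and 2.64 in CCN2 KO sham and 3.28, 3.33, 3.30, 3.17 and 3.36 in CCN2 KO IRI. The CCN2 KO IRI kidneys were tightly grouped and above every kidney of the CCN2 KO sham and WT IRI groups, with a difference of responses of 1.25 (SE 0.21, limma adjusted p = 0.0186). Zc3h4, a zinc finger protein that restrains noncoding transcription, differed by 0.97 (SE 0.15), from a WT response of −0.80 and a CCN2 KO response of 0.17, with sham and IRI kidneys overlapping under the CCN2 KO label. Adar, the enzyme that edits adenosine in double-stranded RNA, had the smallest difference of the 16, 0.68 (SE 0.13), with responses of −0.41 and 0.27 and a like overlap. It is the 16th positive gene, which the naming rule did not reach, and is named because it completes the count. Zkscan3, a zinc finger repressor of autophagy and lysosome genes, had a WT response of −2.05 and a CCN2 KO response of −0.57. Its difference was 1.49 (SE 0.21), and its CCN2 KO sham kidneys, at 3.13 to 3.65, lay below the WT sham kidneys, at 3.90 to 4.56.

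Gpam, the mitochondrial acyltransferase that begins triacylglycerol synthesis, had log2 RPKM of 3.43, 3.45, 3.59 and 3.40 in WT sham and 2.57, 2.87, 2.35 and 2.35 in WT IRI. Under the CCN2 KO label it was 3.28, 2.83, 3.66 and 3.86 in sham and 4.11, 3.77, 4.13, 3.72 and 4.49 after IRI. The WT response was −0.93 and the CCN2 KO response 0.63, a difference of 1.56 (SE 0.28, limma adjusted p = 0.0263), and the CCN2 KO kidneys overlapped between sham and IRI. Slc27a1, which encodes the fatty acid transport protein FATP1, was lower after IRI under both labels without overlap. It was 5.16, 5.31, 5.16 and 5.23 in WT sham and 3.67, 3.61, 3.55 and 3.50 in WT IRI. In CCN2 KO kidneys it was 4.94, 5.21, 5.13 and 5.23 in sham and 4.49, 4.30, 4.30, 4.18 and 4.27 after IRI. The WT response was −1.63 (SE 0.09) and the CCN2 KO response −0.82 (SE 0.08), so WT IRI stood at 0.322 of WT sham and CCN2 KO IRI at 0.566 of CCN2 KO sham.

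Irgm2, an interferon-induced GTPase, had WT groups far apart and CCN2 KO groups at 1 level. Its values were 1.97, 1.97, 2.09 and 2.16 in WT sham and 1.02, 1.07, 0.88 and 1.05 in WT IRI. They were 1.83, 1.86, 2.15 and 2.07 in CCN2 KO sham and 1.88, 2.10, 2.19, 1.83 and 2.04 in CCN2 KO IRI. The WT groups were about 1 log2 unit apart, while the CCN2 KO groups overlapped, with responses of −1.04 (SE 0.11) and 0.03 (SE 0.11). The difference was 1.07 (SE 0.16, limma adjusted p = 0.00862). Irgm2 shares 162 exonic bases with Igtp on the same strand, and how reads there were assigned is not known. Unc93b1, which carries nucleic acid-sensing Toll-like receptors to endosomes, had responses of −1.43 in WT and −0.32 in CCN2 KO, a difference of 1.10 (SE 0.20).

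Bsnd, which encodes barttin, the subunit that chloride channels of the thick ascending limb, distal tubule and intercalated cells need to reach the membrane, had log2 RPKM of 4.71, 4.72, 4.95 and 4.88 in WT sham and 2.50, 2.93, 2.64 and 2.10 in WT IRI. It was 5.36, 4.63, 4.55 and 4.55 in CCN2 KO sham and 3.91, 4.09, 4.34, 3.53 and 4.67 in CCN2 KO IRI. The sham groups overlapped, the IRI groups did not, and the difference of responses was 1.61 (SE 0.31, limma adjusted p = 0.0460). Only 33D6 of the CCN2 KO IRI kidneys, at 4.67, lay within the CCN2 KO sham range. Without it the difference was 1.47 (SE 0.29, limma adjusted p = 0.0402). With all kidneys, on the linear scale, WT IRI stood at 0.207 of WT sham and CCN2 KO IRI at 0.631 of CCN2 KO sham.

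Tmem88b had the largest positive difference, 2.25 (SE 0.37), from responses of −2.72 and −0.48, at low levels of −1.14 to 2.27. Fgfr3, a fibroblast growth factor receptor, differed by 1.30 (SE 0.23), and Dll1, a ligand of Notch receptors, by 1.03 (SE 0.17). Dll1 was lower in every CCN2 KO sham kidney, at 1.39 to 1.58, than in any WT sham kidney, at 1.93 to 2.34. Pde4c, a phosphodiesterase that degrades cAMP, differed by 1.23 (SE 0.24) and Exoc3l4 by 1.13 (SE 0.21), both with responses below 0 under each label.

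**Figure D3:**
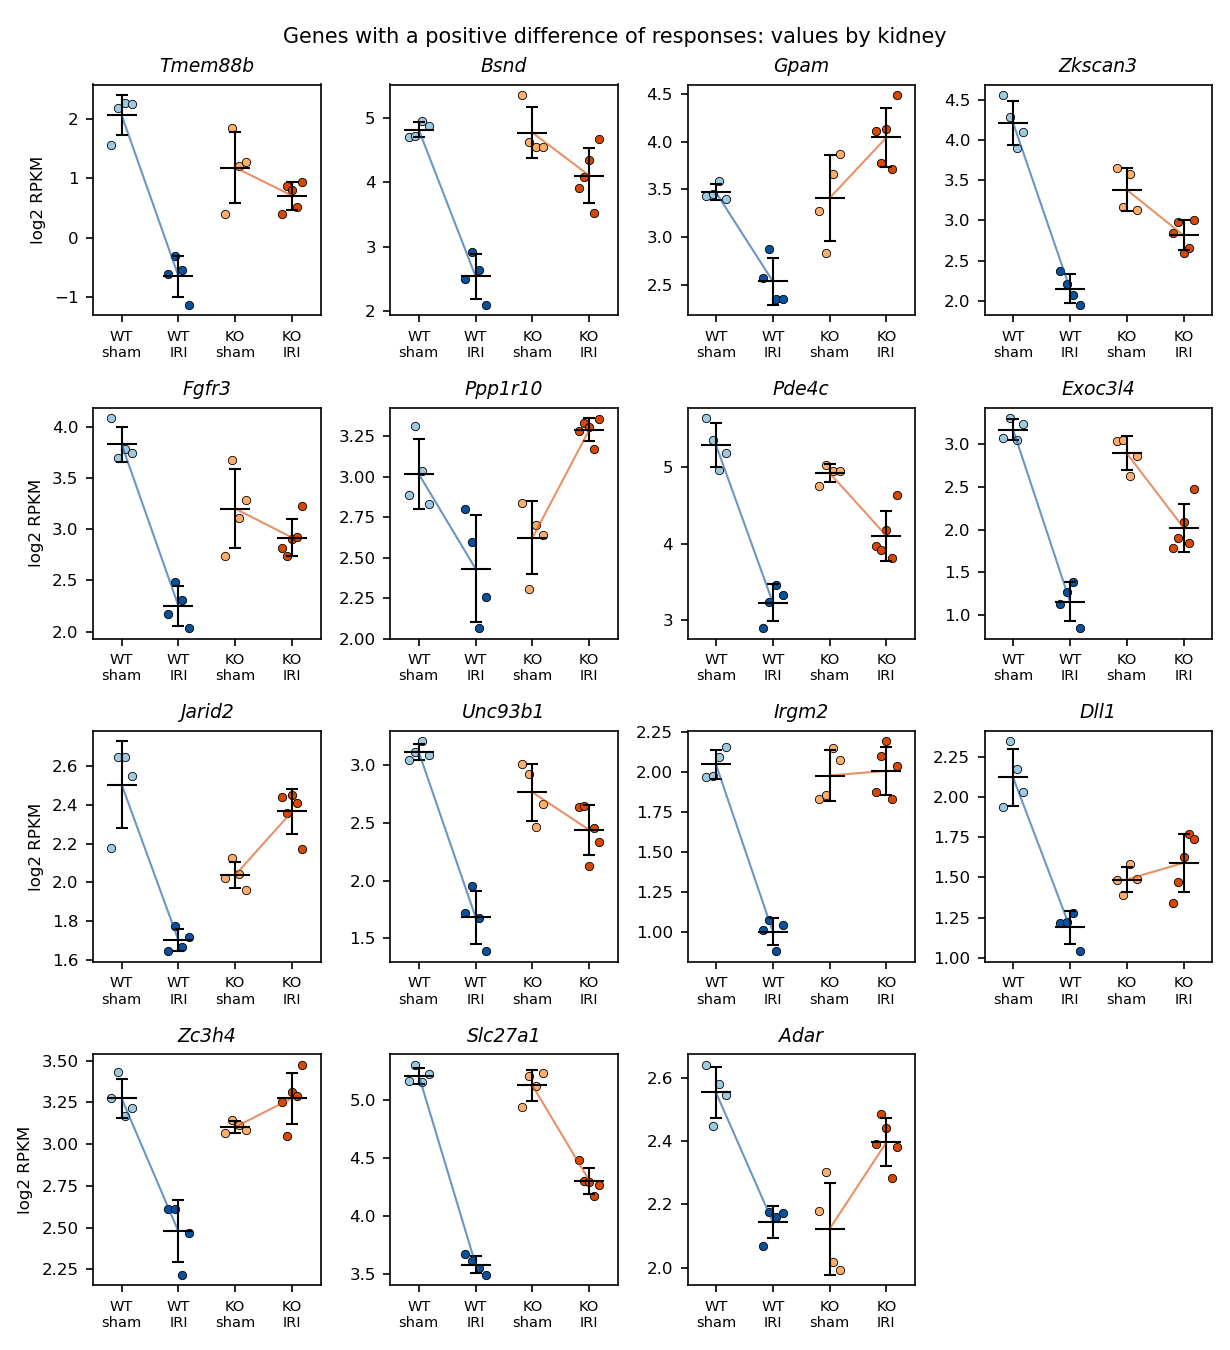
Deposited log2 RPKM of each kidney for 15 of the 16 genes with a positive difference of responses, by group, with the group mean and SD as bars and a line joining the sham and IRI means of each label. In every panel the WT line falls more steeply than the CCN2 KO line, which runs upward in 7 panels.

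Rap2b, a Ras-like GTPase and p53 target, had the largest difference in size of the 23. Its log2 RPKM was −0.34, −0.10, −0.62 and 0.12 in WT sham and 3.34, 3.17, 3.22 and 3.56 in WT IRI. Under the CCN2 KO label it was 0.16, −0.13, −0.22 and −0.50 in sham and 1.19, 0.66, 1.81, 1.13 and −0.11 after IRI. The sham groups overlapped, the 4 WT IRI kidneys were above all others, and 33D6, the last value, was at the level of the sham kidneys. WT IRI stood at 11.8 times WT sham and CCN2 KO IRI at 2.15 times CCN2 KO sham. The difference was −2.45 (SE 0.41, limma adjusted p = 0.0186), and −2.19 (SE 0.32) without 33D6.

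Ier2, an immediate early gene of the nucleus, followed the same form. It was 2.49, 2.23, 2.73 and 2.95 in WT sham and 5.13, 4.93, 5.49 and 5.50 in WT IRI. In CCN2 KO kidneys it was 2.73, 2.58, 2.56 and 2.53 in sham and 3.53, 4.02, 3.35, 3.65 and 2.48 after IRI. Only 33D6 of the CCN2 KO IRI kidneys lay within the sham range. The difference was −1.86 (SE 0.34, limma adjusted p = 0.0313), and −1.63 (SE 0.24) without it.

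Btg1, an antiproliferative protein that recruits the CCR4-NOT deadenylase, was 2.35, 2.22, 2.54 and 2.54 in WT sham and 4.78, 4.76, 4.81 and 4.97 in WT IRI. It was 2.22, 2.34, 2.52 and 2.53 in CCN2 KO sham and 3.38, 3.67, 3.17, 3.68 and 2.30 in CCN2 KO IRI. The sham groups had nearly the same mean, and the CCN2 KO IRI kidneys other than 33D6 stood between the sham and WT IRI ranges. The difference was −1.57 (SE 0.30, limma adjusted p = 0.0417), and −1.34 (SE 0.17, adjusted p = 0.00419) without 33D6. Crem, a factor of the cAMP response that includes the inducible repressor ICER, differed by −1.62 (SE 0.32), with 33D6 at 0.92 and the other CCN2 KO IRI kidneys at 1.53 to 2.10.

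The other 3 negative genes had smaller differences, and 33D6 was again the lowest CCN2 KO IRI kidney in each. Eif4e, the translation initiation factor that binds the mRNA cap, was 3.72, 3.73, 3.84 and 3.78 in WT sham and 5.02, 4.75, 4.80 and 5.01 in WT IRI. It was 4.25, 3.97, 4.15 and 3.97 in CCN2 KO sham and 4.41, 4.50, 4.44, 4.48 and 4.13 in CCN2 KO IRI. The CCN2 KO groups overlapped and both lay between the WT groups, with a difference of −0.82 (SE 0.14, limma adjusted p = 0.0186). Tmem55b, a phosphatidylinositol phosphatase of lysosomes, had responses of opposite sign, from 2.85 to 2.90 in WT sham up to 3.13 to 3.37 in WT IRI, and from 2.93 to 3.10 in CCN2 KO sham down to 2.69 to 2.80 in CCN2 KO IRI. Its difference was −0.67 (SE 0.10, limma adjusted p = 0.0127). Cinp, a protein that binds CDK2 and acts in DNA replication, also had responses of opposite sign, 0.42 in WT and −0.42 in CCN2 KO, a difference of −0.84 (SE 0.16).

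**Figure D4:**
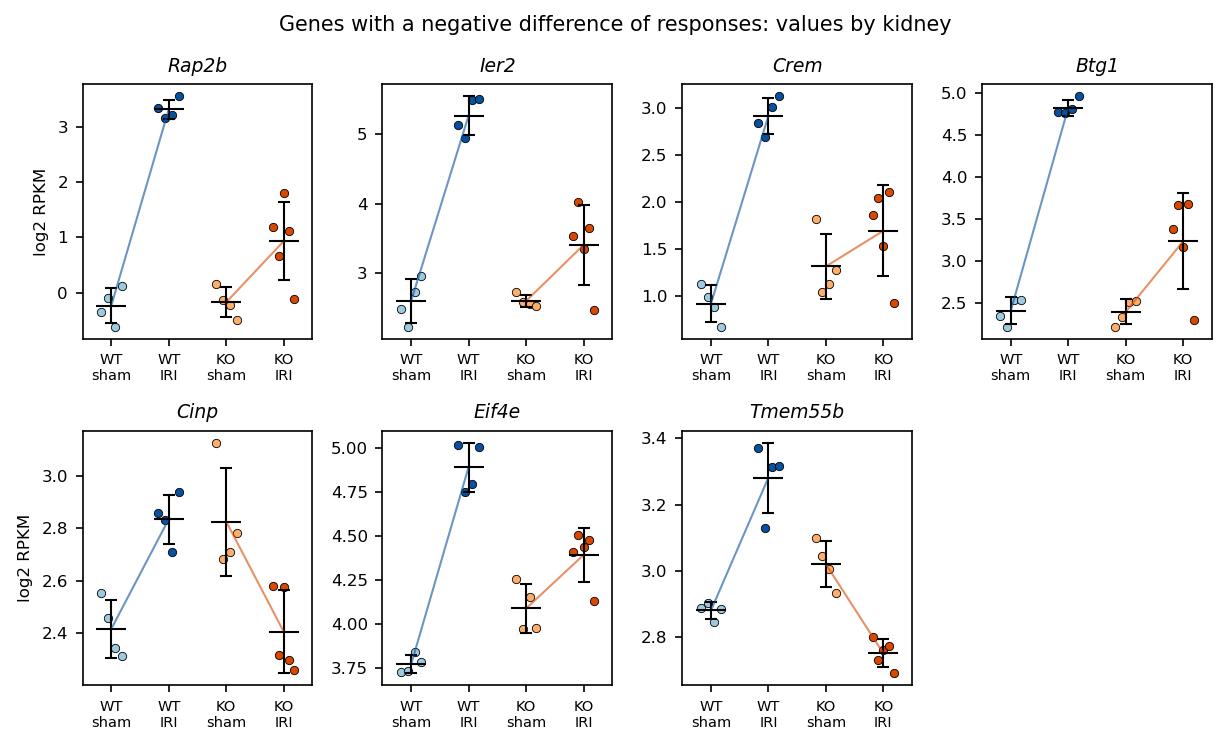
Deposited log2 RPKM of each kidney for the 7 genes with a negative difference of responses, by group, with the group mean and SD as bars and a line joining the sham and IRI means of each label. In each of the 7 panels the lowest CCN2 KO IRI point is replicate 33D6.

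Some of these genes overlap a neighbour on the other strand, and the strand setting of the authors' counting is not given in the sources used here. The shared exonic length was 3702 bases for Rap2b with B430305J03Rik, 1365 for Adar with Chrnb2, 998 for Fgfr3, 888 for Exoc3l4, 877 for Tmem55b with Apex1, 867 for Dll1, 472 for Crem and 155 for Zc3h4. The study's methods name directional libraries and the union mode of counting. How reads in the shared bases were assigned is not known, and their part in these values was not tested.

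Stretches before the start site of 4 of the genes are shown, and each holds 1 of the matches found. Dll1, Tmem88b and Gpam among them were lowered by IRI in WT kidneys. They come from RefSeq on GRCm38.p6, 5′ to 3′ on the gene's strand. Capitals mark the matched motif, which is TATAAA in Btg1, the AP-1 motif TGANTCA in Dll1 and Tmem88b and the C/EBP-ATF motif TGATGNAA in Gpam. The stretches lie at chr10:96616901-96617000 on the plus strand and, on the minus strand, at chr17:15376993-15377072, chr4:155786045-155786124 and chr19:55127239-55127318.
Btg1: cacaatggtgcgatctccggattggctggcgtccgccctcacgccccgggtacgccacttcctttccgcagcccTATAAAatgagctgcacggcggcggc
Dll1: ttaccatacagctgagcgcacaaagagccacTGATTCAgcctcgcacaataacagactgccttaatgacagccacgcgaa
Tmem88b: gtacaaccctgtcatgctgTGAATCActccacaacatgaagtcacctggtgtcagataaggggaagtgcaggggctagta
Gpam: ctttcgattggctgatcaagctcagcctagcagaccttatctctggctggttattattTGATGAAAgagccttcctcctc

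RefSeq promoters matched 16 of the 23 genes, with 27 windows of 250 bases before a start site, searched on both strands. AP-1 motifs stood in 2 of the 22 windows of positive genes and in 0 of the 5 windows of negative genes (Btg1, Eif4e, Rap2b and Tmem55b), against 6.75% of 32851 promoters and 4.44% of the 11597 promoters of genes tested. The C/EBP-ATF motif stood in 2 positive windows, in Gpam and Ppp1r10, against 1.91% of promoters of genes tested. TATAAA stood in 2 positive windows and 1 negative one, against 6.53%. The CRE motif TGACGTCA (2.58%) and the CArG box (1.13%) had no match in the 27 windows. These matches describe the letters only.

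Ctgf, the targeted gene, did not differ detectably in its response. Its log2 RPKM was 2.65, 3.95, 3.91 and 4.26 in WT sham and 4.95, 5.02, 4.41 and 3.92 in WT IRI. It was 2.87, 2.95, 3.92 and 3.91 in CCN2 KO sham and 5.04, 3.75, 4.16, 4.33 and 3.86 in CCN2 KO IRI. All 4 groups overlapped their neighbours. The difference of responses was −0.07 (SE 0.50, 95% confidence interval −1.13 to 0.999, limma adjusted p = 0.970), with an exact permutation p of 0.905. The table holds 1 value for the whole gene, and values by exon were not analysed here, so the deletion itself was not checked. By qPCR the study reported lower CCN2 mRNA under the CCN2 KO label in both sham and IRI kidneys. In the values here the labels overlapped in each kind of surgery. Leaving out single kidneys moved the difference between −0.28 and 0.28, and without 33D6 it was 0.03.

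The genes that the study measured by other assays did not pass either, and most of their differences were negative. Gadd45a, a p53 target that marks growth arrest and DNA damage, had responses of 3.83 in WT and 1.56 in CCN2 KO, a difference of −2.27 (SE 0.56, limma adjusted p = 0.0981). Its kidneys lay at 6.80 to 7.64 in WT IRI and at 3.76 to 6.31 in CCN2 KO IRI, where 33D6 was the lowest. Without 33D6 the difference was −1.86 (SE 0.36) with an adjusted p of 0.0385. By qPCR at the same time after reperfusion, the study reported no reduction of Gadd45a or Cdkn1a expression in CCN2 KO kidneys. Havcr1, which encodes the proximal tubule injury marker KIM-1, differed by −1.69 (SE 0.86, adjusted p = 0.365), with responses of 7.18 and 5.49. Cdkn1a, the cell cycle inhibitor p21, differed by −1.45 (SE 0.77), Hmox1, heme oxygenase, by −1.31 (SE 0.61) and Bcl2l1, the survival protein BCL-XL, by −0.80 (SE 0.22, adjusted p = 0.114).

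Differences nearer to 0 were measured for the rest. They were −0.60 (SE 0.68) for Lcn2, the injury marker NGAL, and −0.44 (SE 0.77) for Sox9, a transcription factor of tubule repair. For the glutathione and quinone enzymes they were −0.15 for Nqo1, −0.07 for Gclc and 0.09 for Gclm. Trp53 stood at −0.22 and Hmgb1, a chromatin protein released by damaged cells, at 0.25. Without 33D6 they were −0.37 for Lcn2, −0.11 for Sox9, −0.05 for Nqo1 and 0.05 for Gclc, and 0 of these genes passed either way. At the same time after reperfusion, the study's qPCR found Havcr1, Lcn2 and Sox9 equally raised by IRI under both labels. It found no difference between the IRI groups in Hmox1, Nqo1, Gclc or Gclm. In kidneys, the study reported Bcl2l1 and Hmgb1 only at a later time, and p53 as phosphorylated protein. Those assays are therefore not direct counterparts of the values given here.

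Groups of related genes were then read as lists, against the median of 0.00 over all genes tested and its 0.182% of genes called. The CCN2 KO response was the smaller in 1576 of the 1712 genes with a WT response beyond 1 in size. A list with a large WT response thus tends to a difference of the opposite sign. Whether any list differed beyond that was not tested. Lists and members were chosen with earlier results of these data known. Among 26 tested immediate early and AP-1 genes the median difference of responses was −1.05. Ier2 and Btg1 passed and 13 of the 26 had an unadjusted p under 0.05, all of these with negative differences, where 7.06% of all genes tested did. The median response was 2.51 in WT and 1.30 in CCN2 KO. Jund, a subunit of AP-1, differed by −1.53 (limma adjusted p = 0.0743) and Myc, the growth-promoting transcription factor, by −2.72 (adjusted p = 0.0980). The gap between the sham groups made up 11.4% of the difference in Jund and 43.8% in Myc. CCN2 KO sham lay above WT sham without overlap in Myc only. Without 33D6 the list's median was −0.75, 3 of its members passed, and Myc was 1 of them at −2.24 (adjusted p = 0.0388).

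Inflammatory genes lay on the same side. Of 19 tested chemokine, cytokine and NF-kB genes 0 passed limma, 9 had an unadjusted p under 0.05, all negative, and the median difference was −0.55. Relb, an NF-kB subunit, differed by −1.44 (SE 0.30, adjusted p = 0.0545) and Cebpb, a transcription factor of the acute phase response, by −1.92 (SE 0.41, adjusted p = 0.0583). Cxcl1, a chemokine that draws neutrophils, lay at 5.59 to 7.01 in WT IRI and at 1.78 to 4.70 in CCN2 KO IRI. Its difference was −4.06 (SE 0.97, adjusted p = 0.0973), and 1 WT sham kidney was at the floor. Without 33D6 the list's median was −0.47, and Cebpb passed at −1.67 (adjusted p = 0.0402).

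Integrated stress response genes had a median difference of −0.68, with 0 of 20 passing limma and 7 at an unadjusted p under 0.05, all negative. Ppp1r15a, which ends the response by removing phosphate from eIF2, differed by −1.94 (SE 0.45, adjusted p = 0.0881), and −1.62 without 33D6 (adjusted p = 0.0385). Chac1, an enzyme that degrades glutathione, differed by −3.45 (SE 1.07). In the tubular injury list the median was −0.60 over 19 genes, with 0 passing limma and 7 negative at the unadjusted level. Without 33D6 the median was −0.37, and Hbegf passed at −1.62 (SE 0.27, limma adjusted p = 0.0191). Several of its genes, Havcr1 and Lcn2 among them, were also measured by other assays on these mice. Hbegf, a growth factor that binds the EGF receptor, had the lowest p of the list, at −1.88 with all kidneys (SE 0.37, adjusted p = 0.0524). Its kidneys lay at 5.56 to 6.64 in WT IRI and at 3.66 to 5.10 in CCN2 KO IRI.

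Targets of p53 had a median of −0.19 over 21 genes. Rap2b passed, and 8 of the 21 were negative and 1 positive at an unadjusted p under 0.05. Pmaip1, a pro-apoptotic BH3-only protein, differed by −1.87 (adjusted p = 0.0787) and Btg2 by −1.53 (adjusted p = 0.109). The gap between the sham groups made up 30% of the difference in Pmaip1 and −1.3% in Btg2. CCN2 KO sham lay above WT sham without overlap in Pmaip1 only. Without 33D6, 2 of the list passed, Rap2b and Gadd45a. The median difference was −0.39 for 17 targets of NRF2, the antioxidant transcription factor, −0.23 for 16 heat shock chaperones, −0.13 for 16 hypoxia-inducible genes and −0.08 for 18 unfolded protein response genes, and 0 members of these 4 lists passed limma. At the unadjusted level these lists had 5, 1, 2 and 2 negative members and 1 positive member, among the hypoxia-inducible genes. Over all genes tested 7.06% were negative and 7.88% positive at that level. Without 33D6 the NRF2 median was −0.26, with 3 negative members, and the unfolded protein response list had 1. Of the unfolded protein response genes, Dnajb9, a chaperone of the endoplasmic reticulum, differed by −1.02 (adjusted p = 0.0925).

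Among gene lists of the nephron the medians were above 0. Bsnd was the 1 of 18 tested thick ascending limb genes that passed, and 6 were positive and 0 negative at an unadjusted p under 0.05, with a median of 0.47, against 7.88% of all genes tested positive at that level. Without 33D6 Bsnd still passed, 3 were positive at that level and the median was 0.35. At any p, 11 of the 18 differences were positive and 7 negative, the lowest at −0.61 for Irx1. Egf, which the distal nephron secretes into urine, differed by 1.32 (SE 0.54, adjusted p = 0.270). Medians were 0.31 for 14 distal convoluted tubule genes, 0.42 for 13 intercalated cell genes, 0.39 for 18 genes of proximal tubule S1 and S2, 0.30 for 12 of S3, 0.29 for 14 podocyte genes and 0.14 for 12 principal cell genes. None of these 83 genes passed limma, and 13 had a positive and 1 a negative difference at an unadjusted p under 0.05. Without 33D6 the median of the S3 list was 0.16, with 1 positive member. In cortex RNA, fewer cells of a type and less RNA per cell cannot be told apart.

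Markers of cell types outside the nephron are given beside these values, and their part in the results was not tested. Of 16 macrophage genes 9 could be tested, with a median difference of 0.97, 0 passing limma and 4 positive at the unadjusted level. Folr2, a folate receptor of resident macrophages, differed by 2.78 (SE 0.73, adjusted p = 0.108), with 1 WT IRI kidney at the floor, and Mpeg1, a pore-forming protein of macrophages, by 1.37 (SE 0.31, adjusted p = 0.0826). Of the 9 differences 7 were positive and 2 negative, Cd14 (−0.70) and Csf1r (−0.06). WT responses in the list ran both ways, from −2.52 for Folr2 to 1.97 for Cd68, with a median of −0.69. The summed RPKM of the macrophage list was 44.7 to 62.7 in WT IRI and 50.8 to 124 in CCN2 KO IRI. Endothelial genes had a median of 0.49 over 18 genes, 0 passing limma and 5 positive at the unadjusted level, with a summed RPKM of 45.6 to 112 in WT IRI and 101 to 138 in CCN2 KO IRI. Fibroblast and pericyte genes had a median of 0.66 over 15 genes, 0 passing limma and 2 positive at the unadjusted level. Over all genes tested 7.88% were positive at that level.

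Blood cell genes were few or uneven. In the neutrophil list only 3 of 12 genes could be tested, and Retnlg, a neutrophil transcript, differed by −2.36 (SE 0.75, adjusted p = 0.158). Of its WT sham kidneys 2 were at the floor, the gap between the sham groups made up 85.9% of the difference, and the IRI groups overlapped. S100a9 differed by −1.51 and S100a8 by 0.05, both subunits of calprotectin. The list had a summed RPKM of 10.6 to 16.03 in WT IRI and 7.58 to 14.5 in CCN2 KO IRI. Camp, a defining neutrophil granule gene, was at the floor in every kidney, and no lymphocyte gene reached the filter. Red blood cell genes had a median of −0.39 over 6 genes, 0 of them at an unadjusted p under 0.05, and summed to 39.0 to 368 in WT IRI and 110 to 738 in CCN2 KO IRI.

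Among metabolic and housekeeping lists the median difference was 0.13 for 22 fatty acid oxidation genes, 0.08 for 12 gluconeogenesis genes, −0.18 for 42 respiratory chain genes, −0.12 for 42 ribosomal protein genes, −0.11 for 28 proteasome genes and −0.21 for 22 ribosome biogenesis and MYC target genes. It was −0.09 for 18 circadian clock genes, −0.07 for 17 targets of TGF-beta and YAP and 0.13 for 12 cell cycle genes. Without 33D6 it was −0.05 for ribosomal protein genes, −0.13 for ribosome biogenesis and MYC target genes, −0.04 for clock genes and 0.02 for targets of TGF-beta and YAP. Of the 215 genes in these lists 0 passed limma. At an unadjusted p under 0.05, 9 had a positive and 23 a negative difference, against 7.88% and 7.06% of all genes tested. Without 33D6 these counts were 10 and 14. Ccnd1, the G1 cyclin D1, came closest at 1.47 (SE 0.33, adjusted p = 0.0724), with 3.44 to 4.26 in WT IRI and 5.17 to 6.29 in CCN2 KO IRI. Short RNAs without a poly(A) tail, whose level in a poly(A) library moves with RNA handling, had a median of 0.40 over 11 genes, 0 passing limma and 4 positive at the unadjusted level, and a summed RPKM of 1108 to 1993 in WT sham and 418 to 1097 in WT IRI. Under the CCN2 KO label it was 305 to 686 in sham and 332 to 689 after IRI. Without 33D6, 2 of these RNAs were positive at the unadjusted level.

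**Figure D5:**
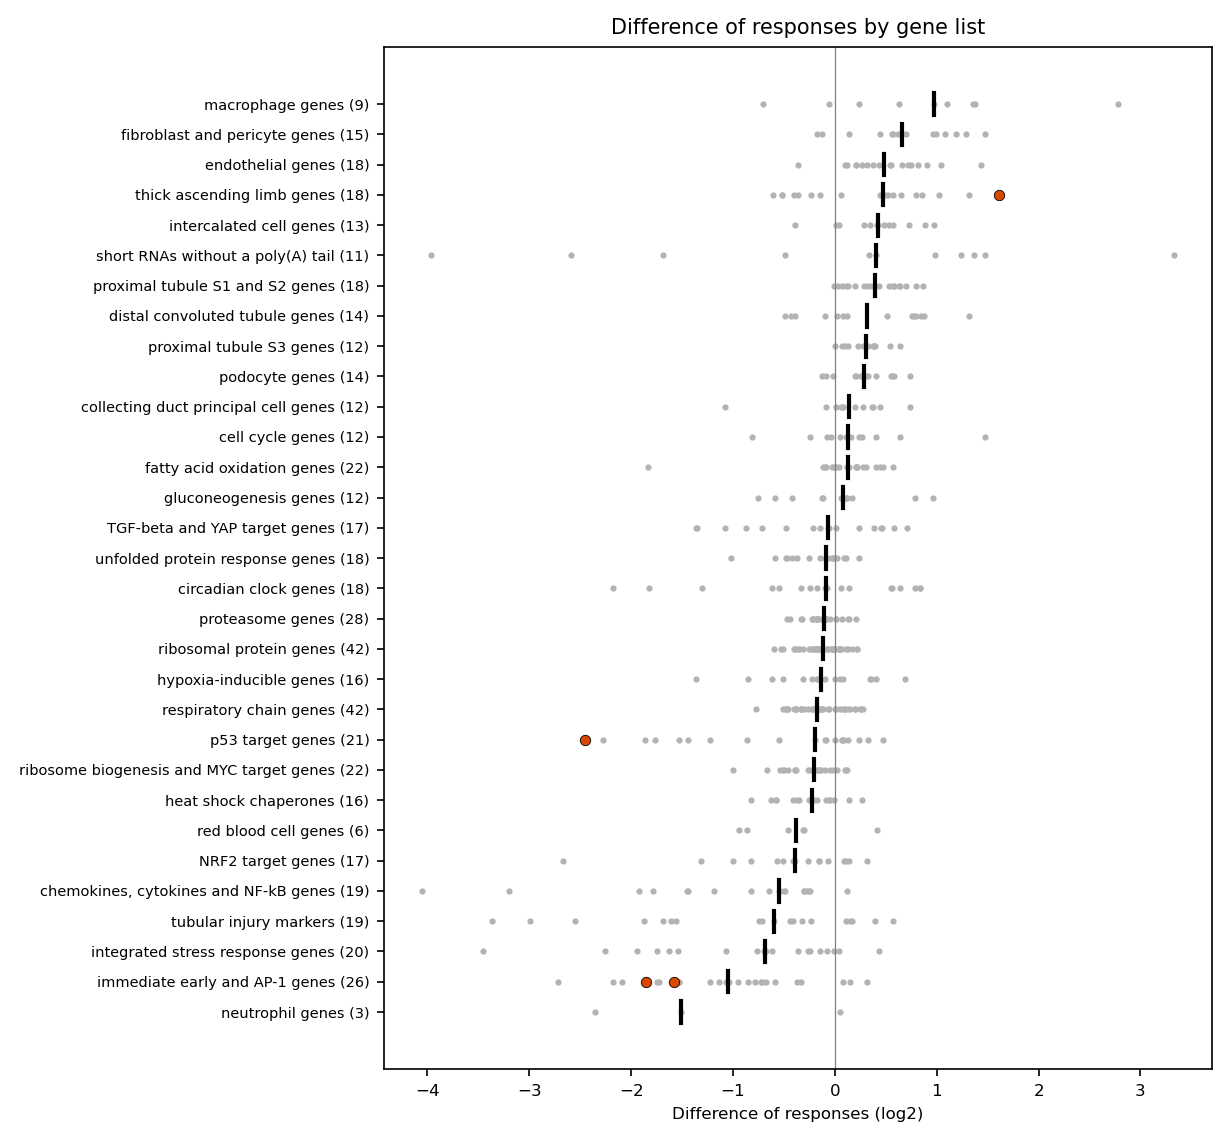
Difference of responses (log2) of each tested member of the 31 gene lists with a tested member, 1 row per list with the number of genes tested in brackets, black bars for list medians and orange points for members that passed the test. Lists of injury-induced genes lie mostly left of 0 and lists of differentiated cell types mostly right.

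Gene length also moved with the difference. Over 12478 genes with a known exonic length, the difference of responses and length correlated at a Spearman rho of 0.155, where genes are not independent. By quartile of length, from the shortest, the median difference was −0.11, 0.01, 0.05 and 0.05. The median exonic length was 5743 bases for the 16 positive genes and 5276 for the 7 negative ones, against 4121 for all genes, so both sets were longer than most. The part of length in the results was not tested.

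Sample titles begin with 32 or 33, and the labels do not say what this number stands for. Both sham groups hold 2 kidneys of each, and all IRI kidneys begin with 33, so a constant shift between the prefixes cancels in the difference of responses. With the prefix as a block 30 genes passed, including all 23. Among kidneys with prefix 33 alone, where each sham group has 2, 3 genes passed, of which Jarid2 (1.26) and Tmem88b (2.38) are among the 23, and the other 21 kept their sign without passing.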

How the data were processed

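Kidney cortex RNA of 17 mice was measured as poly(A) libraries, sequenced single-end. Per the labels and methods, the authors aligned reads to GRCm38 with STAR 2.4.2a, counted them with HTSeq 0.6.1p1, computed RPKM with edgeR and deposited quantile-normalized log2 RPKM. Strand setting and annotation of the counting are not given in the sources used here. The 13 value columns that match no labelled sample were not used. The study's methods list a larger CCN2 KO IRI group than the labels hold. Counts were not at hand, so the depth is unknown, and limma stood in for the count test of the study's methods.

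Genes with at least 4 kidneys above log2 0 (an RPKM of 1) were kept. One mean per group was fitted with limma 3.58.1 in R 4.3.3 (eBayes with trend) and the contrast tested two-sided, with Benjamini-Hochberg adjustment over 12608 genes and a threshold of 0.05. Replicates carry separate animal codes. The permutation covered 70 divisions of sham and 126 of IRI kidneys. On simulated data with 12608 genes, 4% of differences of log2 0.5, 54% of 1, 80% of 2 and 88% of 3 were recovered (50 genes each), with 4 false calls among 117. The simulated noise was independent between genes and had the same SD in all groups. The real kidneys need not meet this, so these rates may not carry over.

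Named are the 15 largest differences of each sign past the threshold, all where fewer pass, without predicted genes, the genes the study measured otherwise, and members with the lowest p from each of 32 lists, up to 4 a list. Some results are not reported here. Members and lists were chosen with earlier results of these data known. Coordinates and overlaps come from GENCODE M21 (GRCm38), in which 36345 identifiers were found, and 27 symbols that had been turned into dates were replaced by identifier. Alternatives covered the filter, a pseudocount, centring, sample weights, the prior, the title prefix and each kidney left out. Python 3.11.15 was used for figures.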

Additional observations from a re-analysis of the deposited data

Results flagged for a closer look

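On the first principal component (difference of responses −30.8) the permutation of genotype labels passed, which asks whether the label matters in either state. The difference of responses passed limma for 23 genes, 22 of them given here. The positive values were 1.13 for Jarid2, 1.49 for Zkscan3, 0.81 for Slc27a1, 1.07 for Irgm2, 0.97 for Zc3h4, 1.03 for Dll1, 2.25 for Tmem88b, 1.25 for Ppp1r10, 1.56 for Gpam, 1.30 for Fgfr3, 1.10 for Unc93b1, 0.68 for Adar, 1.13 for Exoc3l4, 1.23 for Pde4c and 1.61 for Bsnd. The negative values were −0.67 for Tmem55b, −0.82 for Eif4e, −2.45 for Rap2b, −1.86 for Ier2, −0.84 for Cinp, −1.57 for Btg1 and −1.62 for Crem, all on the log2 scale.

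Within groups, 4 single kidneys lay far from the others by Dixon's criterion, among 100 groups of values examined, where chance flags about 1 in 20. Adar was 2.07 in WT IRI replicate 33C1 with the next value at 2.16, and Bsnd was 5.36 in CCN2 KO sham replicate 32B4 with the next at 4.63. Eif4e was 4.13 in CCN2 KO IRI replicate 33D6 with the next at 4.41, and Tmem88b was 1.56 in WT sham replicate 32A1 with the next at 2.18.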

How the results depend on the processing

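All 23 genes kept their sign under each alternative run, with Rap2b and Tmem88b not tested under the stricter filter. The number of genes past the threshold, in all, was 14 with no filter (10 positive, 4 negative), 41 with a pseudocount of 1 RPKM (25 and 16), 231 with sample weights (141 and 90) and 3 with title prefix 33 only (2 and 1). It was 33 with at least 9 samples above log2 1, 24 with centred samples, 17 with a prior without trend, 33 with a robust prior and 30 with the prefix as a block. Of these the negative count alone moved beyond 1.5 times the main count, to 4, 11 and 11 in the last 3. Leaving out each kidney in turn gave 7 to 78 genes, 6 to 47 positive and 1 to 31 negative. The cause of these shifts was not tested. The difference on component 1 ranged from −36.5 to −24.3 and on component 2 from −31.5 to −12.1 when a kidney was left out, and on component 1 it was −37.7 with scaled genes (exact permutation p = 0.0553). For Ctgf it ranged from −0.28 to 0.28, for Sox9 from −0.84 to 0.012 (above 0 without 32A1 only), for Gclc from −0.19 to 0.067 (above 0 without 32B4, 33A1, 33C4 or 33D6) and for Gclm from −0.086 (without 32B5) to 0.19. Gclm was −0.0603 with sample weights and −0.11 with prefix 33 only. No paired analysis was possible because the animal codes pair no samples across groups. The list medians without 33D6 were an alternative chosen after seeing the data. Differences near log2 0.5 were rarely recovered in the simulation, so genes that did not pass may still differ.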

Other observations

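Leaving out CCN2 KO IRI replicate 33D6 brought 17 further genes past the threshold beside the 23. They were named after their values were seen. Of these, 9 were negative, and beside Myc, Gadd45a, Cebpb, Ppp1r15a and Hbegf they were Pvr (−1.65), a cell adhesion receptor, F3 (−1.38, SE 0.16, limma adjusted p = 0.00366), the tissue factor that starts coagulation, Mphosph6 (−0.97), a cofactor of the RNA exosome, and Vmp1 (−0.86), a protein of autophagosome formation. The other 8 were positive. They included Slc9a3 (1.28), the sodium-proton exchanger of the proximal tubule brush border, Tjp3 (1.30), a tight junction scaffold, Evpl (1.17), a desmosome-associated protein, Plxnb2 (0.63), a semaphorin receptor, and Rab11fip3 (0.91), an effector of recycling endosomes. Camta2 (0.61), BC034090 (0.71) and Klhdc7a (1.57) were the rest. Leaving out 33D3 instead brought 55 further genes past the threshold, which are not named here.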
